A study of Arabidopsis thaliana with 6 samples.

Results

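Transcript signals of 10 Arabidopsis genes of the phosphate starvation response were compared between whole seedlings of *pgp1-2* and of the wild type. The genes were chosen by name, not by their signals, though earlier results of these data were known. They comprise the regulator *PHR1* (AT4G28610) and the regulators *SPX1* (AT5G20150), *SPX2* (AT2G26660) and *SPX3* (AT2G45130). The others are the transporters *PHT1;1* (AT5G43350) and *PHT1;4* (AT2G38940), and the starvation-induced genes *PHO1;H1* (AT1G68740), *PAP17* (AT3G17790), *PLDZ2* (AT3G05630) and *GDPD1* (AT3G02040). All 10 loci had a probe on the array, with 12 probes in all, and all 10 were among the 22682 genes tested. One lies on chromosome 1, 3 on chromosome 2, 3 on chromosome 3, 1 on chromosome 4 and 2 on chromosome 5. *SPX3* passed the filter on dim probes through the mutant arrays alone, since its probe was well above background on 1 of the 3 wild-type arrays. The other 9 genes passed it in both groups.

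The mutant carries the *pgp1-2* allele of *PGP1*, a gene for phosphatidylglycerophosphate synthase, which acts in the synthesis of phosphatidylglycerol, the main phospholipid of plastid membranes. The 3 *pgp1-2* samples were 21 d old and had been kept for 14 d at a light level of 30 µmol photons m-2 s-1 and then for 7 d at 15 in the same unit, while the 3 wild-type samples were 14 d old and had spent 7 d at each of these light levels. Both groups were of the Columbia-0 ecotype and grew in continuous light on agar with 3% sucrose, so age and genotype cannot be told apart in any difference below. The labels do not say whether the samples of a group came from separate cultures, and p-values therefore measure only the spread between these samples, which may be technical.

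In plants that lack phosphate, the MYB-type transcription factor PHR1 and its relatives switch on a large set of genes for phosphate uptake, transport and recovery. SPX proteins, which sense inositol pyrophosphates that accumulate when phosphate is plentiful, bind PHR1 and hold it back, and several *SPX* genes are themselves targets of PHR1. The response also releases phosphate from phospholipids and puts galactolipids and sulfolipid in their place, and the sulfolipid and phosphatidylglycerol are the acidic lipids of plastid membranes.

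Signals are given as log2 of the processed signal relative to the 75th percentile of the same array, so that values below 0 are below that percentile, and differences are *pgp1-2* minus wild type. Values of different probes cannot be set against each other as transcript levels. A gene is described as called where its adjusted p in limma was below 0.05 over the 22682 genes. In whole-seedling RNA, fewer cells of a type and less RNA per cell cannot be told apart.

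The arrays of the groups stood far apart, and this sets the scale for the 10 genes. The 75th percentile signal lay between 3315 and 3658 in *pgp1-2* and between 2620 and 3152 in the wild type, and the arrays correlated at 0.989 to 0.993 within a group and at 0.929 to 0.946 between groups. Replicate 1 of each group was on slide 1, and replicates 2 and 3 were on slide 2. The *PGP1* probe was not well above background on any *pgp1-2* array (-8.81, -7.43 and -8.72) and gave 0.78, 0.93 and 0.73 in the wild type, which was at least 226-fold higher (adjusted p = 8.49e-05, limma). Its relative *PGP2* averaged 0.69 ± 0.02 in *pgp1-2* and 0.98 ± 0.02 in the wild type (SD, n = 3 each), with a difference of -0.30 (adjusted p = 0.00632, limma).

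Of the 10 genes, 3 were called higher in *pgp1-2* (*PHT1;4*, *PAP17* and *PLDZ2*), 1 was called lower (*PHR1*) and 6 were not called. Over all genes tested, 27.9% were called higher and 24.6% lower, 52.4% in either direction. The share of the phosphate starvation genes called higher, 30.0%, was therefore near the background, and the share called in either direction was below it. The median difference was 0.42 over the 10 genes and 0.034 over all genes, with 7 positive and 3 negative differences. Within slide 1 only 3 of the 10 differences were positive, and within slide 2 it was 8. In these genes *pgp1-2* replicate 2 led the mean of the other mutant arrays by a median of 0.82. On the log2 scale, the arrays of the groups did not overlap in 4 of the 10 genes, against 64.2% of all genes. These were the same 4 that were called. Among all genes, 15.1% were called with at least a 2-fold difference (7.01% higher and 8.05% lower), and of the 10 genes *PHT1;4* was, as the only one.

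**Figure D1:**
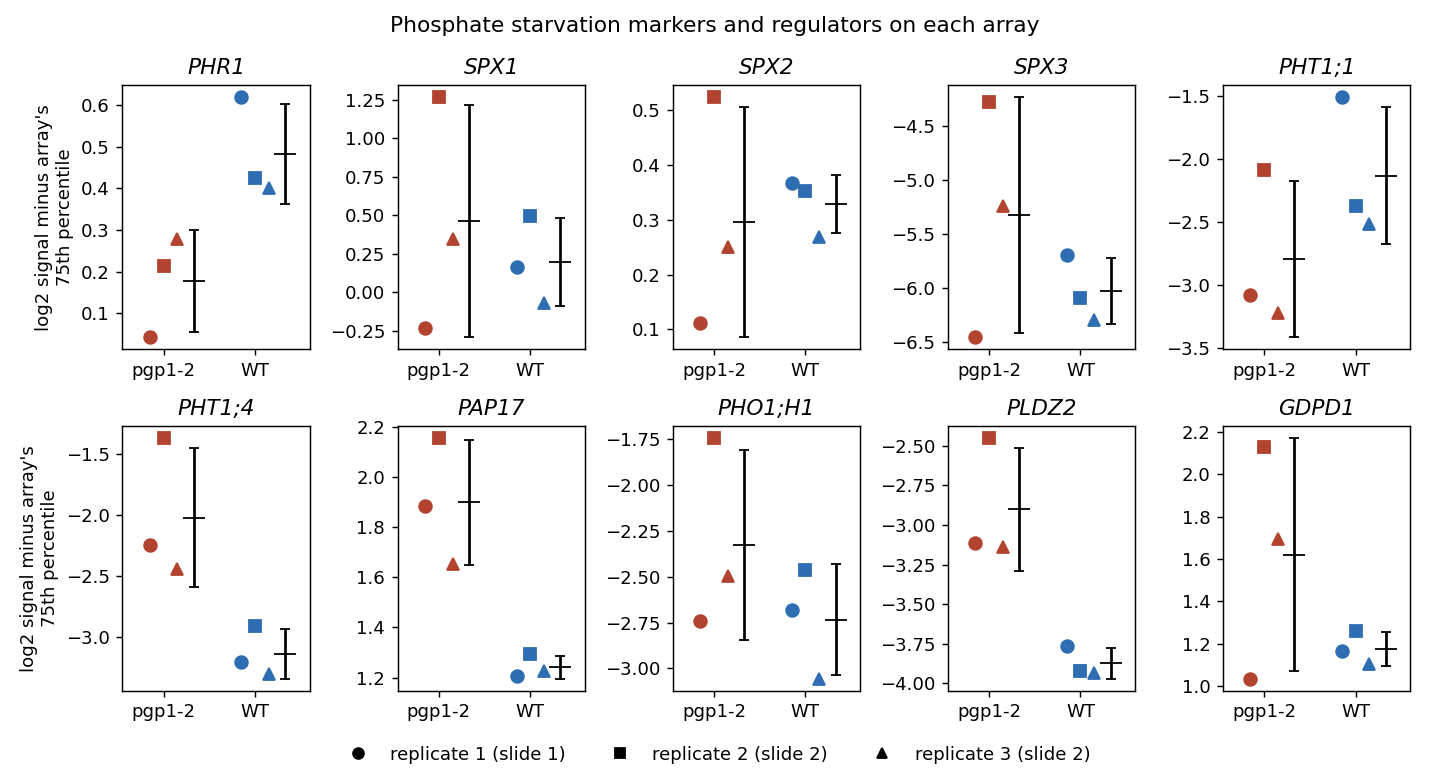
Log2 signal minus the 75th percentile of its array for each of the 10 phosphate starvation genes, with *pgp1-2* left of the wild type. Each point is 1 array (n = 3 per group), its shape gives the replicate and slide, the dash and bar are the mean ± SD, and each panel has its own vertical scale. The groups are apart in *PHT1;4*, *PAP17*, *PLDZ2* and *PHR1*, and *pgp1-2* replicate 2 is the highest mutant array in 9 of the 10 panels.

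The transcription factor gene *PHR1* was called lower in the mutant by a small amount. Its signal was 0.04, 0.21 and 0.28 in *pgp1-2* and 0.62, 0.43 and 0.40 in the wild type. As processed signals, its values were 3585.9, 4243.4 and 4020.3 in *pgp1-2*, and 4024.4, 4232.5 and 3927.7 in the wild type. In processed signal the groups therefore overlapped, and *pgp1-2* replicate 2 was the highest array. On the log2 scale relative to each array's percentile, every *pgp1-2* array was below every wild-type array. The widest gap on that scale was between the replicates 1. The means were 0.18 ± 0.12 in *pgp1-2* and 0.48 ± 0.12 in the wild type (SD, n = 3 each), a difference of -0.30 (SE 0.097, adjusted p = 0.0398, limma). The difference was -0.58 on slide 1 and -0.17 on slide 2. It lost its call in 12 of the 17 other settings that gave a test, among them 5 of the 6 that left out 1 array, and turned to 0.11 when arrays were scaled to the spiked-in control RNAs.

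None of the 3 *SPX* genes was called. *SPX1*, whose product binds PHR1 in the nucleus, gave -0.23, 1.27 and 0.35 in *pgp1-2*, and 0.16, 0.49 and -0.07 in the wild type. Its *pgp1-2* arrays included both the lowest and the highest of the 6, and all wild-type arrays lay between them. The difference was 0.27 with a 95% interval from -0.66 to 1.19 (adjusted p = 0.586, limma), and without *pgp1-2* replicate 2 it turned to -0.14.

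*SPX2*, a close relative of *SPX1*, was the most alike between the groups in mean. It gave 0.11, 0.52 and 0.25 in *pgp1-2* and 0.37, 0.35 and 0.27 in the wild type, and here too the mutant arrays enclosed the wild-type ones. The difference of -0.03 had a 95% interval from -0.31 to 0.25 (adjusted p = 0.823, limma). *SPX3*, a gene strongly induced in phosphate-starved plants, gave -6.46, -4.27 and -5.25 in *pgp1-2* and -5.69, -6.10 and -6.30 in the wild type. These are dim signals: the processed signal was 39.5, 190 and 87.4 in *pgp1-2* and 50.6, 46.1 and 37.9 in the wild type. On the log2 scale, replicates 2 and 3 of *pgp1-2* were above every wild-type array and replicate 1 was below all of them. In processed signal, *pgp1-2* replicate 1 (39.5) was above wild-type replicate 3 (37.9). The difference was 0.70, with a 95% interval from -0.60 to 2.00 (adjusted p = 0.307, limma). It was 0.18 without *pgp1-2* replicate 2 and 1.27 without *pgp1-2* replicate 1, where it was called (adjusted p = 0.0335, limma).

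The transporter genes *PHT1;1* and *PHT1;4* encode proton-coupled phosphate transporters of the plasma membrane, which carry much of the phosphate uptake of the root. *PHT1;4* rose and *PHT1;1* was not called. The signal of *PHT1;4* was -2.25, -1.37 and -2.44 in *pgp1-2* and -3.20, -2.91 and -3.30 in the wild type. All *pgp1-2* arrays were above all wild-type arrays, replicate 2 by the most. The difference was 1.11 (SE 0.287, 95% interval 0.41 to 1.81, adjusted p = 0.0192, limma), a 2.16-fold increase. A second, dimmer probe of the gene gave 1.10 (adjusted p = 0.00926 over all probes, limma). The call was lost in 5 of 17 other tested settings, with the difference still positive in each. With normexp, another background correction, it was 0.65 (adjusted p = 0.161, limma). The other losses were without wild-type replicate 1 (adjusted p = 0.0561), without wild-type replicate 3 (adjusted p = 0.0619), with no filter on dim probes and within slide 2.

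*PHT1;1* gave -3.08, -2.09 and -3.22 in *pgp1-2*, and -1.51, -2.37 and -2.52 in the wild type. Replicate 1 of the wild type was the highest array, and *pgp1-2* replicate 2 was above the other wild-type arrays. The difference was -0.66 with a 95% interval from -1.61 to 0.28 (adjusted p = 0.195, limma), and it was -1.57 on slide 1 and -0.21 on slide 2. *PHT1;1* lies beside near-identical relatives, *PHT1;2* and *PHT1;3*, which had no kept probe here, and which of these transcripts its probe binds was not tested. *PHO1;H1*, a homologue of the phosphate exporter gene *PHO1*, was not called. It gave -2.74, -1.74 and -2.50 in *pgp1-2* and -2.68, -2.46 and -3.06 in the wild type, with *pgp1-2* replicate 2 alone clearly above the wild-type arrays. The difference was 0.41 (95% interval -0.29 to 1.10, adjusted p = 0.273, limma), and 0.11 without that array.

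Of the genes for the recovery of phosphate from organic compounds, *PAP17* and *PLDZ2* rose and *GDPD1* was not called. *PAP17* encodes a purple acid phosphatase that is induced by phosphate starvation and also in ageing leaves. Its signal was 1.89, 2.15 and 1.65 in *pgp1-2* and 1.20, 1.29 and 1.23 in the wild type. As processed signals these were 12877, 16293 and 10434 in *pgp1-2* and 6040, 7721 and 6965 in the wild type. Every *pgp1-2* array was above every wild-type array on both scales. The difference was 0.66 (SE 0.131, 95% interval 0.34 to 0.98, adjusted p = 0.00749, limma), a 1.58-fold increase, and it was 0.68 on slide 1 and 0.64 on slide 2.

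*PLDZ2* encodes a phospholipase D that breaks down phospholipids in starved roots. It gave -3.11, -2.45 and -3.14 in *pgp1-2* and -3.76, -3.92 and -3.94 in the wild type. The wild-type arrays were close together, and all *pgp1-2* arrays were above them. The difference was 0.97 (SE 0.195, 95% interval 0.50 to 1.45, adjusted p = 0.00764, limma), a 1.96-fold increase. It was 0.65 on slide 1 and 1.13 on slide 2, and 0.75 without *pgp1-2* replicate 2. With normexp correction it was 0.20 and was not called (adjusted p = 0.706, limma).

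*GDPD1* encodes a glycerophosphodiester phosphodiesterase, which yields glycerol-3-phosphate from deacylated phospholipids. It gave 1.04, 2.13 and 1.70 in *pgp1-2* and 1.17, 1.26 and 1.10 in the wild type. On this log2 scale, replicates 2 and 3 of *pgp1-2* were above the wild-type arrays and replicate 1 was below them, as for *SPX3*. The difference was 0.44 (95% interval -0.20 to 1.09, adjusted p = 0.204, limma). It was called without *pgp1-2* replicate 1, where it was 0.73, and was 0.19 without *pgp1-2* replicate 2. A second, dimmer probe of the gene gave 0.26 (adjusted p = 0.588 over all probes, limma).

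**Figure D2:**
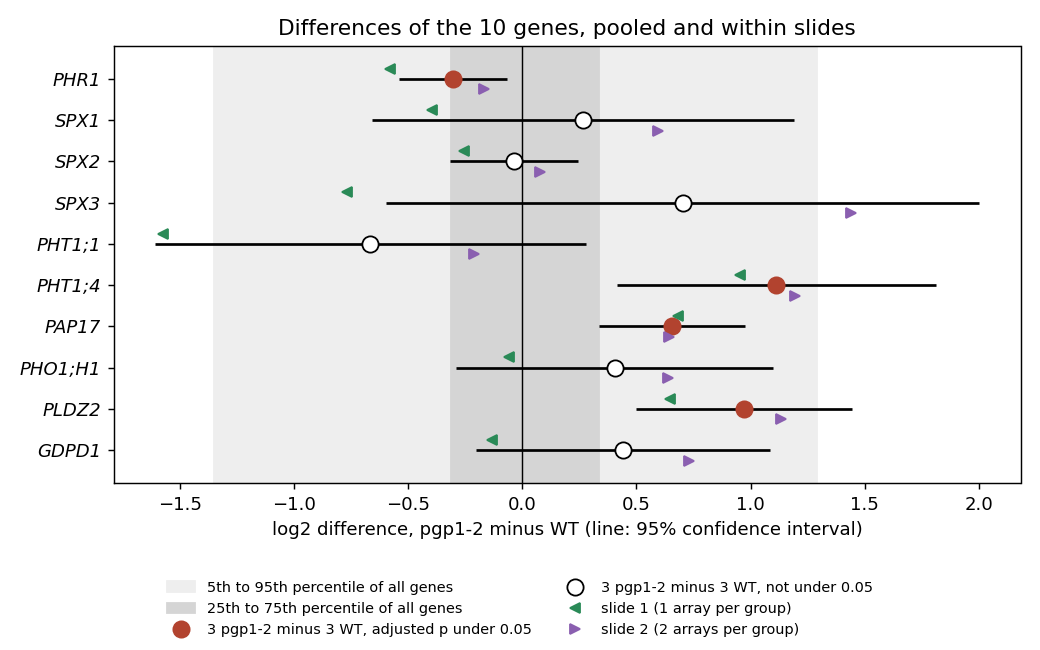
Log2 difference, *pgp1-2* minus wild type, of each of the 10 genes (circles, filled where called) with its 95% interval (lines), and within slide 1 and slide 2 (triangles), over grey bands for the central spread of the 22682 genes tested. *PHT1;4*, *PLDZ2* and *PAP17* lie at the 93.8, 92.4 and 87.1 percentiles of all genes and *PHR1* at the 25.4 percentile, and the intervals of the 6 genes that were not called include 0.

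The mutant arrays differed among themselves in these genes more than the wild-type arrays did. The SD over 3 arrays was larger in *pgp1-2* than in the wild type in 10 of the 10 genes, against 59.4% of all genes. Its median over the 10 genes was 0.53 in *pgp1-2* and 0.16 in the wild type, while over all genes it was 0.12 in *pgp1-2* and 0.099 in the wild type. The lowest mutant array was *pgp1-2* replicate 1 in 6 of the 10 genes, against 28.0% of all genes, and replicate 3 in 4. *pgp1-2* replicate 2 was the highest mutant array in 9 of the 10 genes, all but *PHR1*, against 36.9% of all genes. Its lead over the mean of the other mutant arrays was 1.58 for *SPX3*, 1.21 for *SPX1*, 1.06 for *PHT1;1* and 0.97 for *PHT1;4*, and 0.05 for *PHR1*. The median lead was 0.82 over the 10 genes and 0.0069 over all genes.

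The same array led in other genes of phosphate release. It was the highest mutant array in 10 of the 10 tested genes of a list for phosphate release, with a median lead of 0.45. It was the highest in 9 of 20 signalling genes, 8 of 17 transport genes and 6 of 12 lipid genes, with median leads of 0.013, 0.029 and 0.18. The median lead was 0.14 over the root markers, -0.22 over the leaf markers and -0.24 over the senescence markers. The part of tissue make-up or age in this was not tested.

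**Figure D3:**
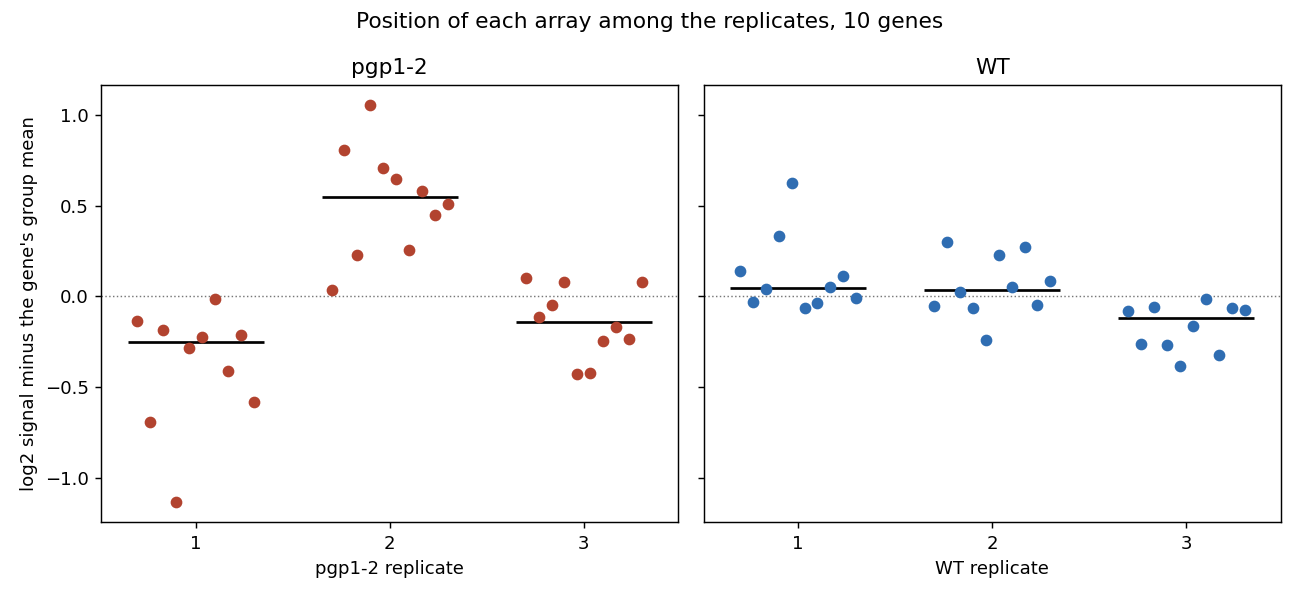
Deviation of each *pgp1-2* array, and of each wild-type array, from its own group mean (log2) for the 10 genes, with 1 point per gene and a black line at the median. Replicate 2 is the highest *pgp1-2* array in 9 of the 10 genes, and the median SD is 0.53 in *pgp1-2* and 0.16 in the wild type.

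Because slides hold both groups, the difference was also taken within each slide. It was positive for 3 of the 10 genes on slide 1 (1 array per group) and for 8 on slide 2. For 5 genes, *SPX1*, *SPX2*, *SPX3*, *PHO1;H1* and *GDPD1*, the sign differed between the slides, which was so for 13.1% of all genes. *PAP17*, *PLDZ2* and *PHT1;4* were higher in *pgp1-2* and *PHR1* and *PHT1;1* lower on both slides.

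Genes that act with the 10 were described from lists, of which 20 of 21 signalling genes, 17 of 24 transport genes, 10 of 12 phosphate release genes and 12 of 17 lipid remodelling genes were tested. Among the signalling genes 10 were called higher and 1 lower, with a median difference of 0.29. *WRKY75*, a transcription factor gene that responds to phosphate starvation and to senescence, averaged -1.11 ± 0.77 in *pgp1-2* and -5.34 ± 0.53 in the wild type (SD, n = 3 each), a difference of 4.23 (adjusted p = 0.000709, limma), which was 2.72 with normexp correction. *WRKY42* (2.02) and *MYB62* (1.98) were called higher too, but their probes were well above background on 1 of the 3 wild-type arrays, and with normexp correction the differences were -0.47 and 0.28.

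Relatives and partners of *PHR1* had smaller differences. *PHL1*, its nearest relative, differed by 0.31 (adjusted p = 0.0329, limma), a call lost in 11 of 17 other tested settings, and *PHL3* differed by -0.43 (adjusted p = 0.00356, limma). Other, dimmer probes of *PHL1* gave 0.18 (adjusted p = 0.170) and 0.43 (adjusted p = 0.0254, both limma over all probes). *SPX4*, another gene for an SPX protein, differed by -0.25 (adjusted p = 0.0740, limma), and *PHO2*, the gene of an enzyme that marks phosphate transporters for degradation, by 0.28 (adjusted p = 0.0918, limma). A second, dimmer probe of *PHO2* gave 0.34 (adjusted p = 0.0305 over all probes, limma). Of 17 other tested settings, *PHO2* was called in 5 and *SPX4* in 2. *AT4*, a non-coding RNA that binds the microRNA against *PHO2*, was chosen after its values were seen. It gave -1.33, 0.76 and 0.43 in *pgp1-2* and 1.10, 0.83 and 0.33 in the wild type, where *pgp1-2* replicate 1 alone was far from the rest (adjusted p = 0.268, limma). Its relative *IPS1* had no kept probe.

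Among the transport genes 3 were called higher and 1 lower, with a median difference of 0.10. Both shares, 17.6% and 5.88%, were below those of all genes, 27.9% and 24.6%. *PHT1;5*, a transporter that moves phosphate between source and sink organs, averaged -2.86 ± 0.31 in *pgp1-2* and -4.25 ± 0.10 in the wild type, a difference of 1.39 (adjusted p = 0.000994, limma). With normexp correction it was 0.63 and was not called (adjusted p = 0.241, limma). The mitochondrial carrier gene *PHT3;2* differed by 1.90 (adjusted p = 0.0134, limma), by 3.31 on slide 1 and 1.19 on slide 2, and by 0.81 with normexp correction, where it was not called (adjusted p = 0.312, limma). The vacuolar transporter genes differed in direction, with 0.47 for *PHT5;1* (adjusted p = 0.0102) and -0.44 for *PHT5;2* (adjusted p = 0.0147, both limma), calls lost in 2 and 4 of 17 other tested settings. *PHO1* differed by -0.13 (adjusted p = 0.677, limma).

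Among the phosphate release genes 4 were called higher and 2 lower, with a median difference of 0.35. The ribonuclease gene *RNS1*, induced by phosphate starvation, wounding and senescence, averaged -2.06 ± 0.47 in *pgp1-2* and -6.34 ± 0.53 in the wild type, a fitted difference of 4.28 (adjusted p = 0.000318, limma). Its probe was well above background on 2 of the 3 wild-type arrays, so that it passed the filter through the mutant arrays alone, and with normexp correction the difference was 2.17 (adjusted p = 0.0452, limma). The acid phosphatase gene *PAP10* differed by 0.66 (adjusted p = 0.0108, limma), the same size as *PAP17*, while *PAP22* differed by -0.92 (adjusted p = 0.0115, limma). The kinase genes *PPCK1* and *PPCK2* were called in opposite directions, at -0.85 (adjusted p = 0.00256) and 1.20 (adjusted p = 0.0124, both limma). Of 17 other tested settings, the call was lost in 4 for *PAP22* and in 2 for *PPCK1*. *PPCK2* was well above background on 1 of the 3 wild-type arrays and gave -0.67 with normexp correction. The phosphatase genes *PS2* (0.31, adjusted p = 0.455) and *PECP1* (-0.24, adjusted p = 0.745, both limma), known for strong induction by phosphate starvation, were not called and were chosen after their values were seen.

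The lipid genes went both ways. Of 12 tested, 3 were called higher and 4 lower, with a median difference of -0.03. The sulfolipid synthase gene *SQD2* averaged -0.16 ± 0.29 in *pgp1-2* and 0.70 ± 0.21 in the wild type, a difference of -0.85 (adjusted p = 0.00799, limma). The galactolipid synthase genes *MGD2* (-1.19, adjusted p = 0.0228) and *DGD1* (-0.55, adjusted p = 0.00871, both limma) were lower too. The call of *MGD2* was lost in 5 of 17 other tested settings, with differences between -1.42 and -0.74. Under spike-in scaling, with and without a slide block, the calls of *DGD1* (-0.13) and *SQD2* (-0.44) were lost. *MGD3* differed by 0.53 (adjusted p = 0.512, limma), and *NPC4*, a phospholipase C gene, had no kept probe. *GDPD5*, a relative of *GDPD1*, was called higher by 0.65 (adjusted p = 0.0148, limma), as were the phosphatidate phosphatase genes *PAH2* by 0.34 (adjusted p = 0.0207) and *PAH1* by 0.31 (adjusted p = 0.0195, both limma). Of 17 other tested settings, the call was lost in 9 for *PAH2*, in 7 for *PAH1* and in 2 for *GDPD5*.

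**Figure D4:**
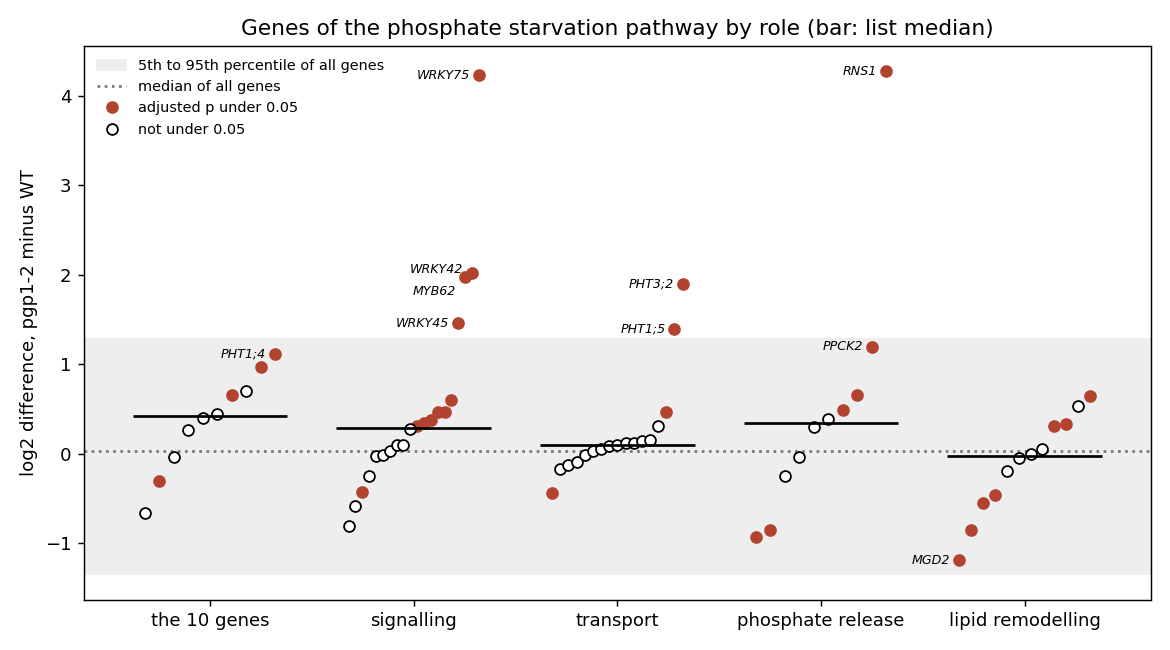
Log2 difference, *pgp1-2* minus wild type, of each tested gene of the 10 phosphate starvation genes and of the lists for signalling, transport, phosphate release and lipid remodelling, with called genes marked and a bar at each median. The medians are 0.42, 0.29, 0.10, 0.35 and -0.03, and *WRKY75* and *RNS1* lie furthest from 0.

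Markers of organs and of senescence were read as lists, and their summed signals, in units of the 75th percentile, rest on a few bright probes. The sum of 8 tested root markers was 46.5 to 68.8 in *pgp1-2* and 19.8 to 21.1 in the wild type. *PYK10* alone made up 88.2% to 97.3% of it, the other 7 summed to 1.79 to 1.93 in *pgp1-2* and 2.19 to 2.39 in the wild type, and the median difference of the 8 was -0.18. The root markers as a list therefore had no common direction.

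The sum of 8 leaf markers was 225 to 271 in *pgp1-2* and 362 to 388 in the wild type. The photosynthesis genes *RBCS1A* and *LHCB1.3* made up 97.6% to 98.6% of it, and the other 6 summed to 4.56 to 5.68 in *pgp1-2* and 5.20 to 5.88 in the wild type, which overlap. The sum of 5 senescence markers was 36.5 to 38.1 in *pgp1-2* and 28.0 to 33.8 in the wild type. *SAG21*, which was not called, made up 78.5% to 90.4% of it, and the other 4 summed to 5.07 to 7.84 in *pgp1-2* and 2.90 to 3.24 in the wild type. A second, dimmer probe of *SAG21* gave 0.34 (adjusted p = 0.0230 over all probes, limma).

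Single markers went both ways. Of the root markers 2 were called higher, *PYK10* (1.56) and *COBL9* (1.70), and 2 lower, *SHR* (-0.52) and *CASP1* (-4.38). *COBL9* was well above background on 2 of the 3 wild-type arrays and *CASP1* on 1 of the 3 *pgp1-2* arrays, so that each passed the filter through 1 group alone. With normexp correction *COBL9* differed by 0.29 and was not called, and *CASP1* differed by -2.80. Of the senescence markers *SAG13* (3.40) and *SAG101* (0.72) were called higher and *SWEET15* (-2.29) lower. Of the leaf markers *FAMA* (0.72) was called higher and 4 lower. *YAB1*, *YAB3* and *AS1* were not called, and the median difference of the 8 was -0.29. *EXPA7*, *RHD6*, *PLT1*, *NRT2.1*, *HAK5* and *SAG12* had no kept probe. The part of organ shares and senescence in the values of the 10 genes was not tested.

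The nearest annotated neighbours of the 10 genes gave no common direction. Of 20 neighbours in TAIR10.1 gene order, 15 were tested, of which 5 were called higher, 5 lower and 5 not called. Over all genes tested, 27.9% were called higher and 24.6% lower. Both neighbours of *PLDZ2* were lower in *pgp1-2*, and 1 of the neighbours of *PAP17* was lower and the other not called.

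**Figure D5:**
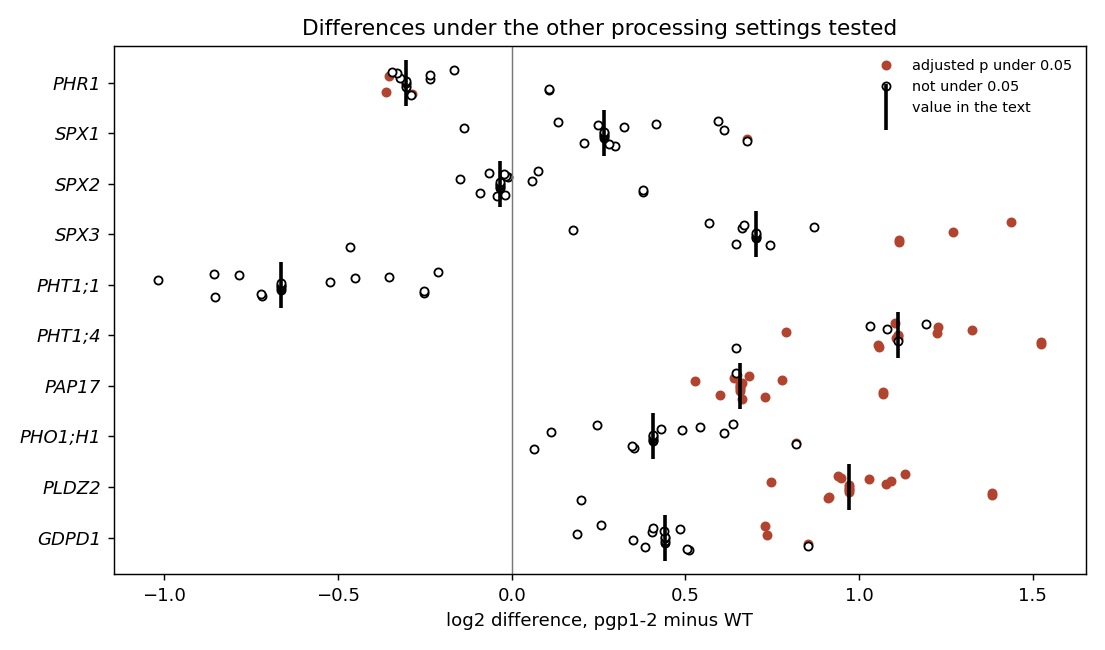
Log2 difference, *pgp1-2* minus wild type, of each of the 10 genes under the other processing settings that gave a test (points, filled where called), with the reported value as a tick. *PAP17* lies between 0.53 and 1.07, and *PHR1* is the one called gene whose points reach the other side of 0, at 0.11.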

How the data were processed

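Per the labels' protocols, the authors hybridised Cy3-labelled RNA of each sample to 1 one-colour Agilent array. Per the file headers, the scans were quantified with Feature Extraction 10.7.1.1. For each spot the deposited files give a linear intensity corrected for background within the array (the processed signal), raw median intensities of spot and background, and other values of 0 or 1 that flag spots. The headers record no scaling between arrays.

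Signals were log2-transformed, and the 75th percentile of each array was subtracted. Control spots and outlier-flagged spots were left out, and spots of a probe were averaged. Probes had to be well above background throughout at least 1 group, and the brightest kept probe stood for its gene. Probe accessions were matched to loci through a RefSeq gene table (TAIR10.1, used for names and gene order only, since the header names another build): 34358 of 43603 probes matched 25433 loci. The 22682 genes were fitted together in limma 3.58.1 (R 4.3.3, moderated two-sided test), with p-values adjusted by Benjamini-Hochberg over all of them. The code was tested on simulated data. A gene dim on all arrays of a group has a bound only, against the lowest signal well above background. The number of arrays limits the precision.

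The 10 genes, the lists and the tests were chosen with earlier results of these data known. Named were the 10 genes, *PGP1*, *PGP2*, the 3 largest called increases and decreases of each list, relatives of the 10 genes, markers, and those said to be chosen later. Other settings changed background correction, scaling, filter, probe rule, block or arrays. Replicate numbers were not taken to pair arrays, since the labels give no shared origin. Deviations of same-numbered arrays correlated at 0.081, 0.124 and 0.059, low values that cannot settle whether arrays are paired. All 6 arrays correlated best with the array of their own number in the other group. Promoter sequences were not analysed here.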

Additional observations from a re-analysis of the deposited data

How the results depend on the processing

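Of the called genes, *PAP17* was positive in every setting and lost its call only within slide 2 (adjusted p = 0.0743, limma), where 4 arrays are left. *PLDZ2* lost its call under normexp correction only, and *PHT1;4* under normexp (0.65, adjusted p = 0.161), with no filter (adjusted p = 0.0566), within slide 2 (adjusted p = 0.0939) and without wild-type replicate 1 or 3. The cause was not tested.

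Within slide 2, *PLDZ2*, *SPX3* (1.44, adjusted p = 0.0478) and *GDPD1* (0.73, adjusted p = 0.0486, both limma) were called higher. Spike-in scaling added a call of *SPX3* (1.11, adjusted p = 0.0197, limma). Of the 10 genes, those called higher numbered 1 under normexp, 3 within slide 2 and 4 under spike-in scaling. They numbered 7 under spike-in scaling with the slide as a block and 2 to 5 when 1 array was left out. Those called lower numbered 0 under normexp, spike-in scaling with and without a slide block, no filter, the slide as a block, the replicate block and within slide 2, and 0 to 1 when 1 array was left out. With the replicate block 11016 genes were called and *PHR1* lost its call (adjusted p = 0.0978, limma). All 6 arrays correlated best with their own number in deviations from the group mean, a hint from the data and not the design.

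Over all genes, 2818 were called higher under normexp, 3521 under spike-in scaling, 10696 under spike-in scaling with the slide as a block, 3443 within slide 2 and 5002 to 5973 when 1 array was left out. Those called lower numbered 1088, 2138 and 3470 under spike-in scaling, that with the slide block, and within slide 2, and 4554 to 5123 when 1 array was left out. Spike-in scaling, which rests on 7 probes, shifted the median of all genes by 0.41, and normexp and no filter each by -0.12. Of called genes 53.1% were higher in the main setting, 42.0% under normexp, 76.4% under spike-in scaling and 83.3% with the slide block added.

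The list medians under spike-in scaling, with and without the block, were 0.71 (signalling), 0.51 (transport), 0.76 (release) and 0.39 (lipid). The lipid median was also -0.22 under normexp, -0.084 under median scaling and -0.32 with no filter. With 1 array left out the medians ranged over 0.22 to 0.36, 0.050 to 0.13, 0.10 to 0.51 and -0.099 to 0.027.

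Signs turned under spike-in scaling, with and without the block, for *PHR1* (0.11), *SPX2* (0.38), *PGP2* (0.12), *SPX4* (0.17), *PHO1* (0.28) and *PECP1* (0.17). Under normexp they turned for *SPX3* (-0.46), *WRKY42* (-0.47), *PPCK2* (-0.67) and *MGD3* (-0.49). On slide 1 they turned for *SPX1* (-0.39), *SPX3* (-0.77), *PHO1;H1* (-0.059), *GDPD1* (-0.13), *PHO1* (0.24) and *MGD3* (-1.53), and within slide 2 for *SPX2* (0.077), *AT4* (0.015) and *PECP1* (0.36). When 1 array was left out, the sign also turned for *SPX1* (range -0.14 to 0.61) and *PS2* (-0.032 to 0.58) without *pgp1-2* replicate 2, for *SPX2* (-0.15 to 0.058) without replicate 1, for *PHO1* (-0.37 to 0.012) without replicate 3, and for *PECP1* (-0.77 to 0.21) without replicate 1 or wild-type replicate 2. The cause was not tested. Dim probes, such as that of *SPX3*, lie near background and are measured least firmly.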
